A study of Mus musculus with 11 samples.

Results

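The oocyte genes *Zp1*, *Zp2*, *Zp3*, *Gdf9*, *Bmp15*, *Oosp1*, *Mos*, *Zar1*, *Nobox* and *Figla* were followed in single mouse embryos at the 8-cell stage. They were chosen by symbol for their known expression in the growing oocyte, by a rule that uses no measured value, though with earlier results of these data known. All 10 were matched by Ensembl identifier among the 54146 gene records of the tables. Single-embryo RNA-seq had been done on C57BL/6 embryos collected at embryonic day 2.5, after natural mating of *Prdm10*Δ/+ parents. The 6 control embryos were *Prdm10* wild-type or heterozygous, which the labels do not separate, and the 5 mutant embryos were *Prdm10* KO (*Prdm10*Δ/Δ), with exon 5 deleted on both alleles. Every mother was heterozygous, so the oocytes behind both groups came from females with a functional copy of *Prdm10*. Batch 1 (16 cycles of PCR pre-amplification) held 3 controls and 2 mutants, and batch 2 (13 cycles) held 3 controls and 3 mutants. The question was how much RNA of these oocyte genes was present in each embryo, and whether mutants and controls differed in it.

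A mouse oocyte builds its stock of RNA while it grows, and most of that stock is degraded during meiotic maturation and after fertilization, as the embryo turns on its own genome. *Zp1*, *Zp2* and *Zp3* encode the glycoproteins of the zona pellucida, the coat of the egg. GDF9 and BMP15 are TGF-β family ligands that the oocyte secretes to the surrounding granulosa cells. MOS is the kinase that activates the MAPK pathway and holds the egg at metaphase of the second meiotic division, ZAR1 binds and stores maternal mRNAs, OOSP1 is a secreted oocyte protein, and NOBOX and FIGLA are transcription factors of the oocyte.

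FIGLA acts on zona genes through E-boxes, which have the letters CANNTG. This pattern, though not every site that fits it, is the same on both strands, so 1 search covers both. The RefSeq promoter table (GRCm38.p6) held 6 of the 10 genes, and the 250 bases before the annotated start are printed for 2 of them: *Zp3*, the most abundant of the 10 in these embryos, and the X-linked *Bmp15*, for contrast. The windows lie at chr5:135979855-135980104 on the plus strand and chrX:6320725-6320974 on the minus strand, and capitals mark each E-box.
Zp3: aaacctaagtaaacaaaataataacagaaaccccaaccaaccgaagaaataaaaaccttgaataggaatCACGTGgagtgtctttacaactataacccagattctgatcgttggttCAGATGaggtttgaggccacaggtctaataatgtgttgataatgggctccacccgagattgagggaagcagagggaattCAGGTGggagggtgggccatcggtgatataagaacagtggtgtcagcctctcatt
Bmp15: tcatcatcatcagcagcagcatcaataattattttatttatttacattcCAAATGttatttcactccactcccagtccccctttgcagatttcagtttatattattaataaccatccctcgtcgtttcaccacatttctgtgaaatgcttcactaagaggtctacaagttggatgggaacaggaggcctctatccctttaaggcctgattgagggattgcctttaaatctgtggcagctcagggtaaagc
The *Zp3* window held 3 E-boxes, the first of them with the letters CACGTG, and none overlapped another. The *Bmp15* window held 1, the fewest of the 6 genes. *Oosp1* had 5, a count that 1.15% of all windows reached or passed, and *Zar1*, *Nobox* and *Figla* had 2 each. At least 1 E-box was present in 66.2% of all 32851 promoter windows of this length, and 3 or more in 12.2%.

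The libraries held between 3534735 and 8265840 expected counts, and each pair of libraries differed by more than counting error. The first principal component separated the batches and carried 48.1% of the variance. On the second (14.2%), control 1 stood apart from the rest, at 21.1 against -9.16 to 9.65. *Prdm10* itself was read at 11.1 to 24.8 TPM (RSEM's length-corrected share of all transcripts) in controls and at 4.88 to 8.16 TPM in mutants. This rests in part on its effective length, 2565 to 3357 bases in controls and 4348 to 5051 in mutants, since the normalised counts overlapped (124 to 381 in controls, 104 to 202 in mutants). The 8-cell embryo markers *Pou5f1*, *Klf5*, *Klf17*, *Tfap2c* and *Cdh1* had counts in all 11 libraries, whereas *Sox2* was at 0 in 5.

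The oocyte genes spanned a wide range of levels, from *Zp3*, read above 19 TPM in every embryo, to *Figla*, which had no count at all. *Zp3* averaged 36.6 ± 10.4 TPM (SD, n = 11) and exceeded *Oosp1* in 10 of 11 embryos. *Oosp1* averaged 12.4 ± 13.7 TPM and exceeded *Gdf9* in 7 of 11 embryos, so these neighbours were not separated by the spread between embryos. *Gdf9* averaged 4.78 ± 2.34 TPM and exceeded its partner ligand *Bmp15* in 10 of 11 embryos. Below these, *Bmp15* (2.45 ± 1.33), *Zp1* (2.32 ± 2.35) and *Zp2* (1.49 ± 1.24 TPM) followed, with SDs larger than the steps between them. *Zar1* (0.544), *Mos* (0.434) and *Nobox* (0.135 TPM on average) were near the limit of detection, and the effective lengths of *Zar1* (684 to 1486 bases) and *Nobox* (846 to 1819) also varied between libraries. These are levels in whole embryos, in which fewer cells with a transcript and less RNA per cell cannot be told apart. The same holds for RNA left from the oocyte and RNA made by the embryo.

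**Figure D1:**
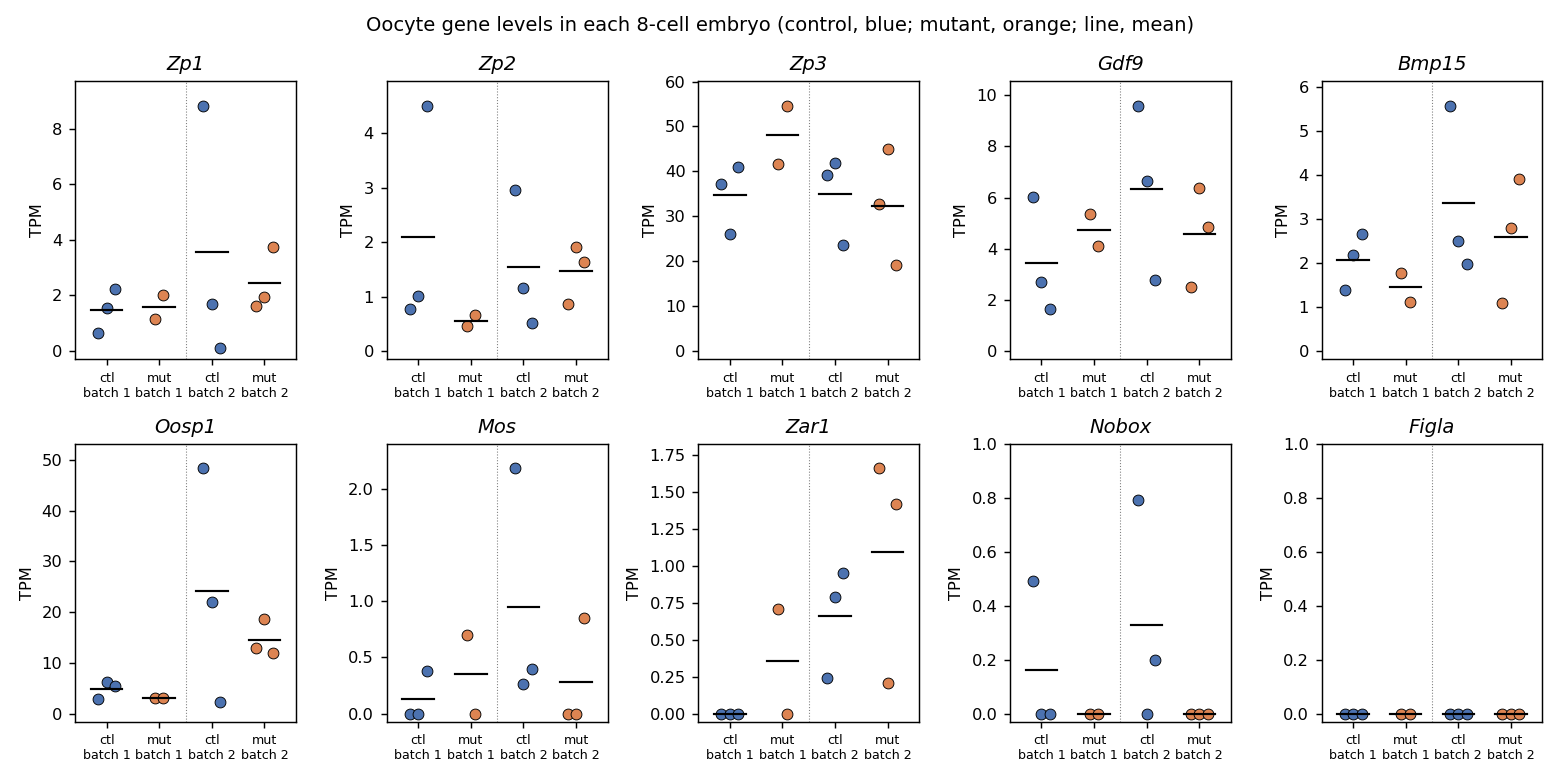
TPM (vertical axes, each gene on its own scale) of the oocyte genes in each of 11 embryos, split by group and batch on the horizontal axis, with a line at each mean. *Oosp1* lay at 11.9 to 18.6 TPM in batch 2 mutants and at 3 to 3.13 TPM in batch 1 mutants, and *Figla* was at 0 in every embryo.

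Among the zona genes, *Zp3* (ENSMUSG00000004948.12, chr5:135980099-135988624, plus strand) had the smallest coefficient of variation over the 11 embryos (28.3%) among the genes with a count. Controls were read at 23.7, 26.2, 37.1, 39.1, 41.0 and 41.8 TPM as sorted values, with the lowest in control 3. Mutants were at 32.6, 45.1 and 19.2 TPM in batch 2 and at 41.7 and 54.7 TPM in batch 1. The highest and the lowest of all 11 values were both mutants, and the groups overlapped. The mutant minus control log2 fold change was 0.16 ± 0.27 (SE), with a 95% interval from -0.37 to 0.69 (adjusted p = 0.906, DESeq2 Wald test with batch as a term).

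*Zp2* (chr7:120126772-120145291, minus strand), whose protein carries the sperm-binding domain of the zona, was lower and more scattered. Control values ran from 0.52 to 4.51 TPM with a median of 1.08, and mutant values from 0.45 to 1.91 with a median of 0.86. In batch 1 the mutants were at 0.45 and 0.66 TPM, from 4 and 6 expected counts, and the controls at 0.77 to 4.51 TPM, from 7, 8 and 55. The counts of 6 and 7 lie within counting error of each other, and in batch 2 the groups overlapped. The fitted log2 difference of -0.83 ± 0.72 had an interval from -2.24 to 0.59 (adjusted p = 0.732, DESeq2), and without control 6, the highest embryo, it was -0.24.

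*Zp1* (chr19:10914287-10920632, minus strand), which cross-links zona filaments, was read at 8.84 TPM in control 1 and at 0.1 to 2.24 TPM in the other 5 controls. Mutants lay between 1.15 and 3.76 TPM, inside the range of the controls. Part of the *Zp1* range in TPM came with the effective length that RSEM gave it, from 407 to 1889 bases between libraries with the same annotation; on normalised counts control 1 (35.6) stood next to mutant 3 (29.3). The log2 difference between mutants and controls was 0.21 ± 0.78 on counts, with an interval from -1.32 to 1.75 (adjusted p = 0.964, DESeq2).

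The growth factor genes were detected in every embryo. *Gdf9* (chr11:53431023-53437904, plus strand) ran from 1.64 to 9.6 TPM in controls, with a median of 4.4, and from 2.5 to 6.38 TPM in mutants, with a median of 4.86. Its log2 difference was the closest to 0 of the tested oocyte genes, at -0.03 ± 0.46 with an interval from -0.94 to 0.88 (adjusted p = 0.993, DESeq2). *Bmp15* (chrX:6314107-6320721, minus strand) ran from 1.39 to 5.58 TPM in controls and from 1.08 to 3.91 in mutants. The lowest values (1.08 and 1.11) were mutants and the highest (5.58) was control 1, yet the groups overlapped. The log2 difference was -0.45 ± 0.46 with an interval from -1.35 to 0.46 (adjusted p = 0.792, DESeq2), and without control 1 it was -0.16.

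*Oosp1* (chr19:11667460-11691150, minus strand) had the largest coefficient of variation (110%) of the 6 genes with a mean above 1 TPM. In batch 2, controls were at 48.3, 21.9 and 2.28 TPM and mutants at 13.0, 18.6 and 11.9 TPM. In batch 1, controls were at 2.89, 6.24 and 5.54 TPM and mutants at 3.13 and 3.0 TPM. The effective length of *Oosp1* ran from 634 to 898 bases, which moves its TPM: mutant 1 was above mutant 3 in TPM and below it in normalised counts (44.5 and 53.6). The values differed by batch more than by group, with control 3 as the exception among the batch 2 embryos. The mutant minus control log2 difference was -0.60 ± 0.56, with an interval from -1.70 to 0.51 (adjusted p = 0.763, DESeq2), and without control 1 it was -0.01.

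The remaining genes were at the edge of what these libraries could measure. *Mos* (chr4:3870657-3872105, minus strand) had 18 counts in control 1, 1 to 6 counts in 5 further embryos and none in 5. *Zar1* (chr5:72576806-72581254, minus strand) had 1 to 9 counts in 7 embryos, and was at 0 in all 3 batch 1 controls and in mutant 5. *Nobox* (chr6:43303674-43309554, minus strand) had 4, 2 and 2 counts in controls 1, 3 and 4, and none in the other 8 embryos, which include every mutant. *Figla* (chr6:86016171-86020996, plus strand) had none in any embryo, where a count of 0 allows up to 0.363 to 0.849 CPM by library, counting error only. Mean normalised counts of *Mos* (2.91), *Zar1* (2.67), *Nobox* (0.627) and *Figla* (0) were under the minimum of 10, so they entered no count of calls. Their fitted differences were imprecise: in DESeq2 the mutant minus control log2 value was -0.46 ± 1.72 for *Mos*, 1.43 ± 1.52 for *Zar1* and -2.74 ± 3.11 for *Nobox*, with 95% intervals that all spanned 0.

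Across the comparison of mutants with controls, 6 of the 10 oocyte genes passed the minimum and none was called. The background was 1.45% of 10448 tested genes called in either direction by DESeq2, and 0.334% of 10489 by the edgeR quasi-likelihood test, which also called 0 of the 6. None of the 6 had an unadjusted p under 0.05 with either tool, 4 had a log2 difference below 0, and their median was -0.24 beside -0.0012 over all tested genes. How large a difference could have been missed varied by gene. The 95% interval of *Zp3* ran from 0.773-fold to 1.62-fold of the control level, while that of *Zp1* reached 3.35-fold higher and that of *Zp2* 4.73-fold lower. The p-values measure the spread between single embryos, which carries both biological and library variation.

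**Figure D2:**
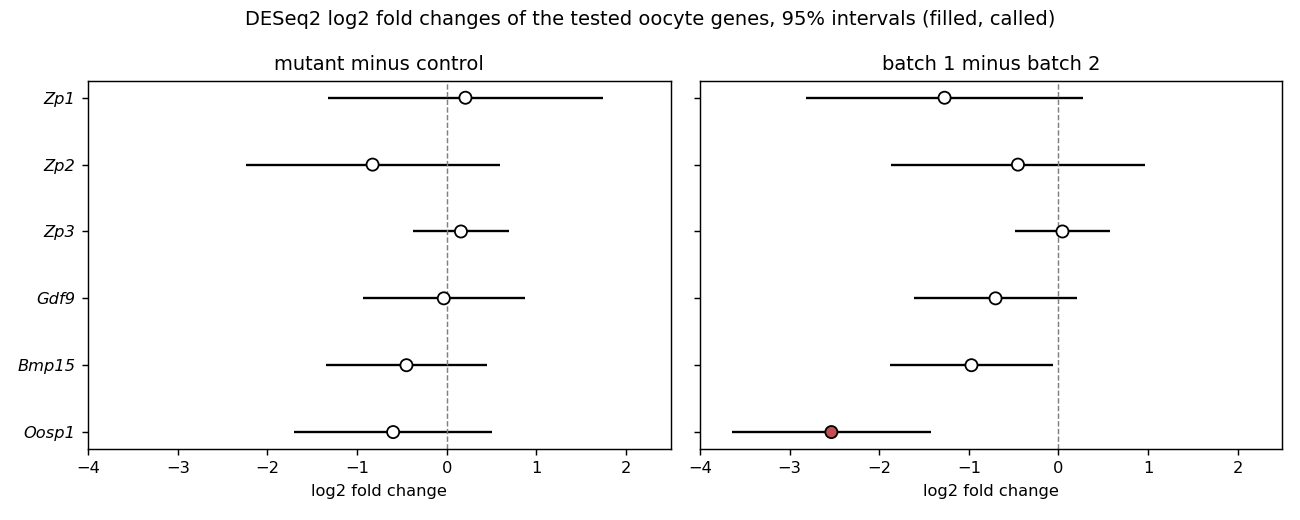
DESeq2 log2 fold changes (horizontal axes) of the 6 tested oocyte genes with 95% confidence intervals, for mutant minus control on the left and batch 1 minus batch 2 on the right. Every interval on the left spans 0, and on the right *Oosp1* (filled, -2.53) was the only gene called.

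Within each batch alone, no oocyte gene was called, beside 0.755% of all tested genes in batch 1 and 0.458% in batch 2 (DESeq2), and 4 of the 6 kept the sign of their difference from batch to batch. In batch 1 alone the log2 difference between mutants and controls was 0.46 for *Zp3* and 0.50 for *Gdf9*, and in batch 2 alone it was -0.08 and -0.44. For *Bmp15* it was -0.56 and -0.36, and for *Oosp1* -0.65 and -0.56, in batch 1 and batch 2. *Zp2* had the largest difference within a batch, -2.0 in batch 1 alone, against -0.03 in batch 2 alone, and *Zp1* had 0.50 and 0.01. The DESeq2 test of the batch by group interaction called none of the 6, against a background of 0.0573% of 10472 genes, with adjusted p = 0.9997 for each of them and 0 under an unadjusted p of 0.05. The edgeR interaction test called 0 as well (background 0% of 10489 genes), with none of the 6 under an unadjusted p of 0.05.

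The batches themselves differed in 1 oocyte gene. *Oosp1* was 5.79-fold lower in batch 1, at a log2 difference of -2.53 ± 0.57 with an interval from -3.65 to -1.42 (adjusted p = 0.000132, DESeq2). This was 1 of 6 genes called, beside a background of 13.8% of 10448 genes called lower in batch 1 by DESeq2 and 12% by edgeR, so the count itself does not set the oocyte genes apart. None of the 6 was called higher in batch 1, beside a background of 14% by DESeq2. The edgeR test gave -2.55 for *Oosp1* (adjusted p = 0.00679), and controls alone gave -2.49 (adjusted p = 0.0210, DESeq2). Without control 1 the DESeq2 difference was -1.98 (adjusted p = 0.00502). *Bmp15* had a log2 difference of -0.97 ± 0.46 between the batches (adjusted p = 0.114, DESeq2), and *Zp3* of 0.04 ± 0.27 (adjusted p = 0.932, DESeq2). The batches differ in PCR cycles and in when the embryos were isolated and processed, which cannot be told apart.

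Of the 5 oviduct markers, 2 were tested and both (*Ovgp1* and *Ccdc153*) were called lower in batch 1 by DESeq2. Of the 5 blood cell markers, 1 was tested (*Hba-a2*) and it was called lower too. These calls stand beside 13.8% of all tested genes called lower in batch 1. The oviduct list of 5 genes had summed normalised counts of 1.04 to 8.20 in batch 1 and of 22.3 to 492 in batch 2. Its defining gene *Ovgp1*, the oviduct glycoprotein, ran from 0 to 8.20 in batch 1 and from 19.4 to 368 in batch 2. The 5 blood cell markers summed to 2.07 to 10.2 in batch 1 and 5.34 to 83.7 in batch 2, ranges that overlapped. Of the 10 cumulus and granulosa cell markers, *Foxl2*, *Has2* and *Ptx3* were at 0 in every library and only *Amhr2* had a mean count above 10. *Amhr2* had 267 to 502 counts in batch 1 and 108 to 207 in batch 2 (log2 difference 1.38, adjusted p = 1.04e-06, DESeq2). *Inha* and *Inhba* had counts in mutant 2 alone (57.2 and 53.4), *Cyp19a1* had 5.21 in control 2 alone, and *Amh*, *Fshr* and *Tnfaip6* had at most 1.35 in any embryo. Sperm markers summed to at most 4.96. Genes of the embryo itself also differed: 5 of 7 tested 8-cell markers (*Pou5f1*, *Nanog*, *Klf17*, *Tfap2c* and *Krt8*) and 4 of 11 tested morula and trophectoderm genes (*Krt8* and *Tfap2c* again, *Cldn7* and *Tead4*) were called higher in batch 1, 7 genes in all, beside 14% of all tested genes. *Atp1b1* of the latter list was called lower. The part of such cells in the *Oosp1* difference was not tested; within batch 2 the highest oviduct sum was in mutant 3 (492), whose *Oosp1* level was 11.9 TPM, control 1 with 48.3 TPM had an oviduct sum of 288, and control 3 had both the lowest oviduct sum (22.3) and the lowest *Oosp1* level (2.28 TPM).

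Summed over the 10 genes, the oocyte gene level differed more between embryos than between groups. Controls summed to 62.4 ± 31.1 TPM (SD, n = 6; range 32.9 to 118) and mutants to 59.6 ± 11.6 TPM (SD, n = 5; range 47.5 to 76.9). Both extremes of the sum were batch 2 controls, control 3 (32.9) and control 1 (118), and the mutants lay between them. *Zp3* gave between 33.3% and 83.4% of the sum, and the embryo with the highest sum, control 1, had a *Zp3* level in the middle of the range (39.1 TPM). Without *Zp3*, the sums were 27.6 ± 26.6 TPM in controls and 21.0 ± 9.11 TPM in mutants. By batch these ran from 10.9 to 17.0 TPM in batch 1 and from 9.2 to 78.5 TPM in batch 2, where control 3 was again the lowest.

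**Figure D3:**
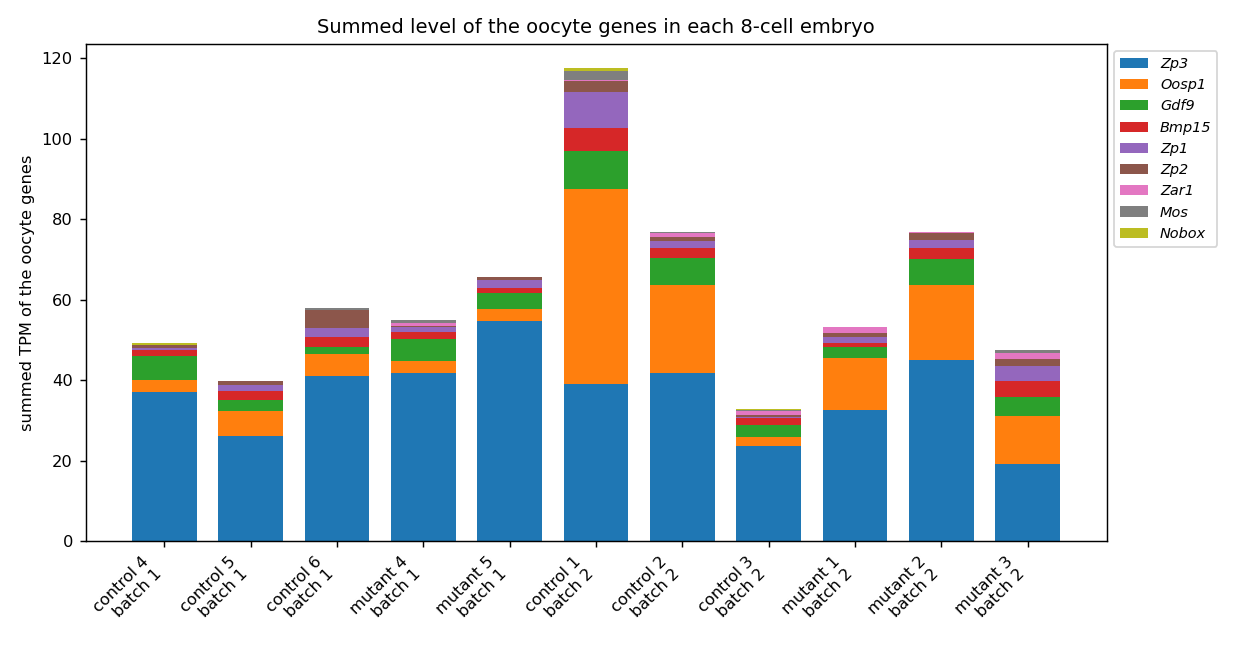
Summed TPM (vertical axis) of the oocyte genes in each embryo, stacked by gene, with batch 1 on the left and batch 2 on the right. Control 1 reached 118 TPM, 48.3 of it from *Oosp1*, and control 3 reached 32.9 TPM.

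Control 1 had the highest TPM of all embryos for 6 of the 10 genes (*Zp1*, *Gdf9*, *Bmp15*, *Oosp1*, *Mos* and *Nobox*), but not for *Zp3*, where it ranked among the middle values. Without control 1, the controls summed to 51.3 ± 17.1 TPM (n = 5) for all 10 genes, below the mutant mean, and to 17.4 ± 10.2 TPM without *Zp3*. Over the 15 pairs of the 6 tested genes, batch-centred log2 levels correlated with Pearson r between -0.08 and 0.73, with a median of 0.42 and 13 above 0 (n = 11 embryos, which share library depth). Leaving out control 1 brought the median to 0.31. The genes thus moved together only in part from embryo to embryo.

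The genes most like the mean batch-centred profile of the 6, among 10483 genes with a mean count above 10, were *Fbxw28* (r = 0.945, rho = 0.809), *Fancd2* (0.928, 0.836), *Gm26678* (0.925, 0.882), *Siah2* (0.916, 0.855) and *Runx1t1* (0.914, 0.855), over n = 11 embryos that share depth and batch. FBXW28 is an F-box protein, FANCD2 acts in DNA crosslink repair, SIAH2 is a ubiquitin ligase, RUNX1T1 is a transcriptional corepressor, and *Gm26678* is a predicted gene. Control 1 was the highest library for 4 of the 5, and without it their r lay between 0.883 and 0.915 and they ranked 8, 15, 9, 12 and 19, so none stayed among the 5 most alike. On log2(TPM + 1), r was between 0.746 (*Runx1t1*) and 0.963 (*Fbxw28*).

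Other maternal genes were set beside the oocyte genes embryo by embryo. Control 1 also had the highest sums of the 10 oocyte mRNA storage genes (506 normalised counts; median embryo 233) and of the 10 other oocyte-expressed NLRP genes (409; median 232). It had the lowest sum of the 5 subcortical maternal complex genes (453; median 1178), in which *Khdc3* was read at 129 counts against 470 to 2476 in the other embryos. Without *Khdc3*, left out after its value was seen, the complex summed to 324 in control 1, above the median embryo (237). Its members did not move together there: *Nlrp5* was at its highest (112) and *Tle6* at its lowest (11.6, against 17.4 to 100 in the other embryos). Control 1 ranked 7 of 11 for the other egg surface and secreted oocyte genes and for the MOS-MAPK genes. It ranked 10 of 11 for the 9 genes of the 2-cell stage (8.28, median 48.4). For the 5 oocyte transcription factors and cofactors it was the highest (1032, median 654), nearly all from *Taf4b* (1028). For the 15 receptors, mediators and antagonists of GDF9 and BMP15 it was the lowest (1200, median 2177). It also had the lowest sum of 12 morula and trophectoderm genes (2087, median 4893), and its *Pou5f1* count of 164 was the lowest of 11. These medians cover both batches. Within batch 2, to which control 1 belongs, the median was 281 for the storage genes and 4353 for the morula and trophectoderm genes. Control 3, which had the lowest oocyte sum in batch 2, had the second lowest morula and trophectoderm sum (2962). A high oocyte gene sum and a low morula gene sum therefore coincided in control 1 and did not in control 3.

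**Figure D4:**
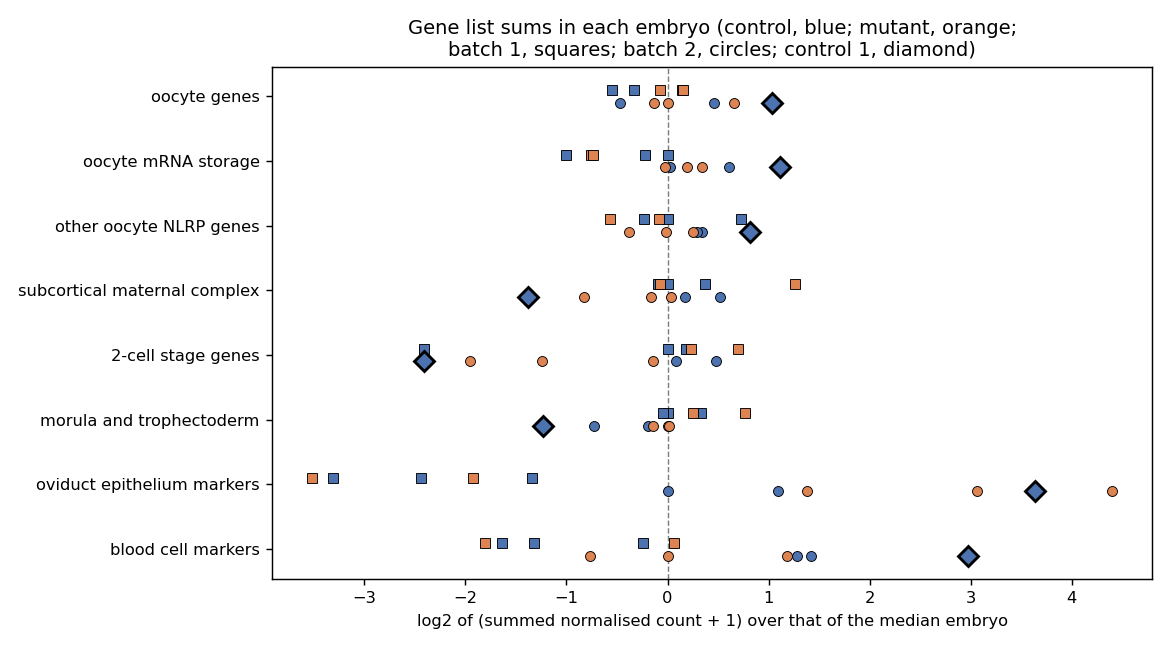
Summed normalised counts of 8 of the gene lists in each embryo, as log2 of the sum + 1 over the median embryo (horizontal axis). Control 1 (diamond) was the highest of 11 embryos for the oocyte, mRNA storage and other NLRP lists and the lowest for the subcortical maternal complex and the morula lists.

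The pathways around the oocyte genes were read beside the 1.45% of all tested genes that DESeq2 called between mutants and controls, a share at which lists of this size give few calls or none. Of the receptors, mediators and antagonists of GDF9 and BMP15, 10 of 15 genes were tested and none was called, with a median log2 difference of -0.02. Of the MOS-MAPK and meiotic arrest genes, 11 of 15 were tested and none was called (median 0.02). The subcortical maternal complex (5 of 5 tested, median -0.02), the other oocyte NLRP genes (6 of 10, median -0.51) and the oocyte mRNA storage genes (4 of 10, median -0.34) had none called either. Among the oocyte transcription factors only *Taf4b*, a TFIID subunit, was above the minimum, at 342 to 1028 normalised counts, with a log2 difference of -0.30 ± 0.24 (adjusted p = 0.689, DESeq2). These medians stand beside -0.0012 over all genes. Of the 2-cell stage genes, 1 of 9 was tested and it was not called.

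*Uchl1* was the 1 gene called lower among 3 tested of 6 other egg surface and secreted oocyte genes, and the share of all tested genes called lower was 0.881% by DESeq2. It encodes a deubiquitinase abundant in oocytes and is not itself secreted. Controls ran from 27.3 to 74.6 normalised counts with a median of 38.8, and mutants from 5.28 to 27.4 with a median of 9.75. Only mutant 2 (27.4) reached the lowest control (27.3). The log2 difference was -1.87 ± 0.51 (adjusted p = 0.0295, DESeq2), and edgeR gave an adjusted p of 0.241. The call was also lost in 8 of 11 fits that left out 1 embryo, and its largest adjusted p among those (0.174) came without control 3. *Ccnb3*, a cyclin of the meiotic anaphase (-2.47 ± 0.81, adjusted p = 0.0943), and *Dazl*, a germ cell mRNA-binding protein (-1.89 ± 0.68, adjusted p = 0.161), had larger or similar differences in DESeq2 that were not called. *Dazl* ran from 0.969 to 146 normalised counts in controls, around mutants at 11.3 to 25.9. Higher in mutants and not called were *Tle6* of the subcortical complex (1.05 ± 0.45, adjusted p = 0.302, DESeq2) and the receptor gene *Tgfbr1* (1.24 ± 0.53, adjusted p = 0.288, DESeq2). These uncalled genes were named after their values were seen.

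On the embryonic side, 2 of 11 tested morula and trophectoderm genes were called higher in mutants and none lower, with a list median of 0.50, beside 0.565% of all tested genes called higher and 0.881% called lower by DESeq2. *Krt18*, a keratin of the trophectoderm, ran from 6.73 to 43.1 normalised counts in controls and from 25.6 to 86.8 in mutants (log2 difference 1.85 ± 0.47, adjusted p = 0.0148, DESeq2). *Cldn4*, a tight junction claudin, ran from 162 to 961 in controls and from 919 to 1762 in mutants (1.08 ± 0.31, adjusted p = 0.0370, DESeq2). In both genes only 1 control reached into the range of the mutants. Of 7 tested 8-cell markers, *Klf5* was called higher and did not overlap between groups (1229 to 1765 against 2409 to 2881; 0.84 ± 0.14, adjusted p = 1.07e-06, DESeq2). *Klf17* was called lower, with ranges of 495 to 2249 in controls and 382 to 1232 in mutants (-1.10 ± 0.29, adjusted p = 0.0210, DESeq2). With edgeR, *Klf5* alone of these 5 genes passed (adjusted p = 0.00729). Leaving out 1 embryo ended the call of *Cldn4* in 8 of 11 fits, of *Krt18* without mutant 3 or mutant 5, and of *Klf17* without control 1, mutant 2 or mutant 5, and never that of *Klf5*.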

How the data were processed

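RNA of 11 single 8-cell embryos was measured with a Smart-seq2 protocol. According to the submitters' processing notes, reads were mapped with STAR (version 2.6.0c) to GRCm38.p6 and quantified with RSEM, and groups were compared with DESeq2 (version 1.22.2). Deposited by the authors for each embryo were RSEM expected counts, in which a read that fits several genes is split, so values can be fractional. The deposited TPM values are normalised by the authors for effective length and scaled to one total per library. Without molecular identifiers, PCR copies were counted separately, so count limits cover counting error only. The authors' comparison table (mean normalised count, log2 fold change with SE, Wald score, p-value and adjusted p) was not used.

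Expected counts were rounded. Mutants and controls were compared with the DESeq2 (version 1.42.0, R version 4.3.3) Wald test (terms: batch, group), without shrinkage and with Benjamini-Hochberg adjustment over all genes. A call needed an adjusted p under 0.05 and a mean above 10 normalised counts. Batch and interaction terms were tested likewise. Alternatives were edgeR (version 4.0.16), limma (version 3.58.1) on log2(TPM + 1) or log2(TPM + 0.1), TMM factors, a filter of 10 counts in 5 libraries, no filter on the mean count, no batch term, single batches, each embryo left out, the effective length as an offset, and Cook's filter switched off. Tests were checked on simulated data. Gene symbols and coordinates came from GENCODE vM21. Replicates are numbered in accession order, so numbers pair no embryos. Named were the 10 oocyte genes, genes of the fixed lists that passed the threshold, and the 5 genes most like the mean batch-centred log2(normalised count + 1) profile of the oocyte genes above a mean count of 10. Other genes of the lists are named where their values stand beside a result, and were picked after those values were seen. The oocyte genes and the gene lists were all chosen with earlier results of these data known.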

Additional observations from a re-analysis of the deposited data

Results flagged for a closer look

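Single embryos stood apart from their own group where the gap to the nearest other embryo exceeded the 95% critical value of Dixon's ratio. This was so in 6 of 39 sets of a gene and a group, where chance marks about 1 in 20 independent groups. These sets were not independent: 5 of the 6 came from control 1, and *Fbxw28* had been named for a profile in which control 1 was the highest embryo.

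Among the oocyte genes, control 1 stood apart for *Zp1* (8.84 TPM, the other controls 0.1 to 2.24), *Bmp15* (5.58 TPM, others 1.39 to 2.65) and *Mos* (2.18 TPM, others 0 to 0.4). For *Zp1* its normalised count was 35.6, next to 15.6 in control 2. The same embryo stood apart for *Krt18* (43.1 normalised counts, others 6.73 to 15.5) and for *Fbxw28* (74.6 normalised counts, others 4.84 to 29.5). Mutant 2 stood apart for *Uchl1* (27.4 normalised counts, 5.28 to 11.4 in the other mutants). Control 1 also held the highest blood marker sum (83.7 normalised counts) and the second highest oviduct marker sum (288), and the part of either in these values was not tested.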

How the results depend on the processing

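No paired analysis was possible because the replicate numbers follow accession order and pair no embryos. The count of oocyte genes called stayed at 0 between mutants and controls (22 alternatives), at 1 between batches (15) and at 0 for the interaction (12), and *Oosp1* stayed called lower in batch 1 under all 15 (log2 -2.84 to -1.65). The summed level in mutants was 76.1% to 123% of controls over 16 alternatives. Alternatives for the sums, the gene lists and the likeness, and the smaller pseudocount over all genes, were chosen after seeing the data. Over all genes, 151 were called (60.9% lower), against 35 by edgeR (77.1% lower), 22 by limma on log2(TPM + 1) (95.5%), 21 on log2(TPM + 0.1) (95.2%), 51 without the batch term (74.5%), 78 in batch 1 alone (60.3%) and 48 in batch 2 alone (75%). Leaving out 1 embryo gave 90 to 265, with 265 (43.0% lower) without control 2, 90 without mutant 2 and 91 without mutant 5. List genes called, 5 in the main test, came to 1 by edgeR, 2 and 1 by limma with the larger and the smaller pseudocount, 1 without the batch term, 3 in batch 1 alone, 0 in batch 2 alone, and 1 to 5 without 1 embryo; the cause was not tested. Directions turned, without a call on either side, for *Zp1* (log2 -0.24 with the effective-length offset), *Zp3* (-0.083 in batch 2 alone) and *Gdf9* (0.023 and 0.061 by limma with the larger and the smaller pseudocount, 0.50 in batch 1 alone) between groups, and for *Zp2* (0.34) and *Zp3* (-0.20) between batches in controls alone. Without 1 embryo the group difference ranged from -0.20 to 0.25 for *Gdf9* and from -0.078 to 0.82 for *Zp1*, the batch difference of *Zp3* from -0.094 to 0.16, and the interaction from -0.79 to 0.21 for *Bmp15*, from -1.20 to 0.46 for *Oosp1* and from -0.66 to 1.17 for *Zp1*. *Mos*, *Zar1* and *Nobox* stayed under the minimum mean count of 10, with wide intervals, and *Figla* had no count to fit.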

Other observations

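Between the batches, 13.8% of all tested genes were called lower in batch 1 and 14% higher by DESeq2, and the calls among the pathway genes are read beside these shares. Of the growth factor receptors, *Bmpr2* (log2 -1.24, adjusted p = 0.00160) and *Bmpr1a* (-0.52, adjusted p = 0.0345) were lower in batch 1 by DESeq2, 2 of 10 tested, and no gene of that list was called higher. Of the MOS-MAPK and meiotic arrest genes, *Map2k2* (0.90, adjusted p = 0.000494), *Rps6ka1* (1.13, adjusted p = 0.0117), *Gpr3* (1.15, adjusted p = 0.000174) and *Cdc25b* (1.12, adjusted p = 0.0324) were higher in batch 1 by DESeq2, 4 of 11 tested. MAP2K2 and RPS6KA1 are kinases of the MAPK pathway, GPR3 holds oocytes in prophase arrest and CDC25B is the phosphatase that releases it. *Oosp3*, a relative of *Oosp1*, was lower in batch 1 (-1.74, adjusted p = 0.0412, DESeq2), as were *Nlrp4a* (-1.58, adjusted p = 0.0335) and the storage gene *Ddx6* (-1.35, adjusted p = 1.72e-06), whereas *Padi6* of the subcortical complex was higher (0.73, adjusted p = 0.0288).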
